A study of Mus musculus with 6 samples.

Results

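The genes of the vacuolar H+-ATPase (V-ATPase) and of the lysosome were examined in whole lenses of newborn Celf1cKO and control mice. The members were every gene in the deposited expression table whose symbol starts with Atp6v, which gave 18 genes, and 37 further genes taken from a list of lysosomal genes, so that 55 of the 13931 genes in the table were members. They comprised 8 genes of the membrane sector V0, 10 of the ATP-hydrolysing sector V1, 2 V-ATPase accessory genes, 24 lysosomal hydrolases, 6 lysosomal membrane proteins, 3 luminal cofactors and 2 transcription factors. The rule used names only and no measured value, but the study itself had reported V-ATPase terms among the elevated genes of these libraries, so the direction of the V-ATPase genes is not independent evidence.

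The V-ATPase is a rotary proton pump. Its cytosolic V1 sector hydrolyses ATP and turns a central shaft, which drives a ring of proteolipid subunits in the membrane-bound V0 sector and moves protons into the lumen of lysosomes, endosomes and secretory vesicles. The acid lumen is needed by the hydrolases that degrade proteins, glycans and lipids, and the assembled pump is also part of the platform on the lysosomal surface where nutrient signalling occurs. In the lens, maturing fiber cells remove their nuclei and other organelles, and an acid nuclease of lysosomal type, Dnase2b, takes part in the removal of DNA.

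RNA was sequenced from postnatal day 0 lenses, with 3 control and 3 Celf1cKO libraries, each from a separate pool of lenses described as a biological replicate. Celf1 encodes an RNA-binding protein that controls splicing, stability and translation of its targets. Celf1cKO animals carried a germline null allele, Celf1lacZKI, and a Celf1flox allele that is deleted by Pax6GFPCre, a Cre line active in the lens from the placode stage, on a mixed C57BL/6 and FVB background. For the controls the labels state Celf1lacZKI/+, while the methods of the study speak of Celf1flox animals lacking Cre, so their genotype was not settled. If the labels hold, both groups carried the germline null allele, and a part of the loss of Celf1 was common to them. Between 40694454 and 44387151 reads per library fell on genes, and a level of 3 reads corresponded to 0.0609 to 0.0807 CPM (read counts scaled to library size).

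Values are log2 CPM as deposited, numbered by control and Celf1cKO library 1 to 3. The log2 fold-change is the Celf1cKO mean minus the control mean. The term rose (or elevated) and the term fell (or reduced) are kept for genes with an adjusted p under 0.05 in limma with Benjamini-Hochberg adjustment over all 13931 genes. A gene was called when, in addition, the absolute log2 fold-change exceeded 0.58 and the mean log2 CPM of the 6 libraries exceeded 1. The targeted gene was examined first. Celf1 (ENSMUSG00000005506, chr2:90940382-91019497, + strand of GRCm38) stood at 9.95, 9.94 and 9.34 log2 CPM in control libraries and at 8.93, 7.66 and 7.83 log2 CPM in Celf1cKO libraries. All Celf1cKO values lay below all control values (log2 fold-change -1.60, standard error (SE) 0.335, limma adjusted p = 0.0269). Leaving out any library other than Celf1cKO library 1 raised the adjusted p to between 0.056 and 0.108, with a log2 fold-change of -1.80 to -1.36. Celf1cKO library 1 retained the highest Celf1 level of its group. These levels count reads of the whole gene, not of the floxed exon alone. The study reported that a part of the Celf1 transcripts in Celf1cKO lenses still held that exon.

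Among the 55 members, 23 rose, 1 fell and 31 did not pass the test. In the whole table, 7.84% of genes rose and 4.03% fell. Of the members, 14 were called higher and 1 was called lower, against 4.69% and 2.56% of all genes. The groups did not overlap in 34 members, with Celf1cKO higher in 32 and lower in 2, against 19.5% and 17% of all genes in these directions. The median log2 fold-change was 0.362 over the members, -0.035 over all genes and 0.006 over the 10529 genes with a mean log2 CPM above 1. Of the members, 53 passed this level, and Atp6v1c2 and Ctso did not. Without control library 2 or without Celf1cKO library 3, limma called 0 members, with 30 and 31 members at an unadjusted p under 0.05 (33 with all libraries), and only 1 gene of the whole table was called. Without control library 3, 7 members were called. Under total-count scaling, which moved the median of all genes with a mean log2 CPM above 1 to 0.231, 28 members were called.

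The classes differed in how many of their genes moved. Of the 20 V-ATPase genes, 13 rose and 1 fell (median log2 fold-change 0.585). Of the 24 hydrolases, 5 rose and 0 fell, with a median of 0.226, and 10 of the 24 were at an unadjusted p under 0.05. Of the 6 membrane proteins, 4 rose and 0 fell, with a median of 0.459. Summed over genes, the V-ATPase members amounted to 1131, 1137 and 1103 CPM in control libraries and to 1408, 1787 and 1676 CPM in Celf1cKO libraries. The hydrolases amounted to 1381, 1284 and 1310 CPM in control libraries and to 1565, 1609 and 1554 CPM in Celf1cKO libraries. In both sums the Celf1cKO libraries were all above the control libraries. The libraries are of whole lenses, so that more RNA per cell and more cells of a type rich in these RNAs cannot be told apart.

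**Figure D1:**
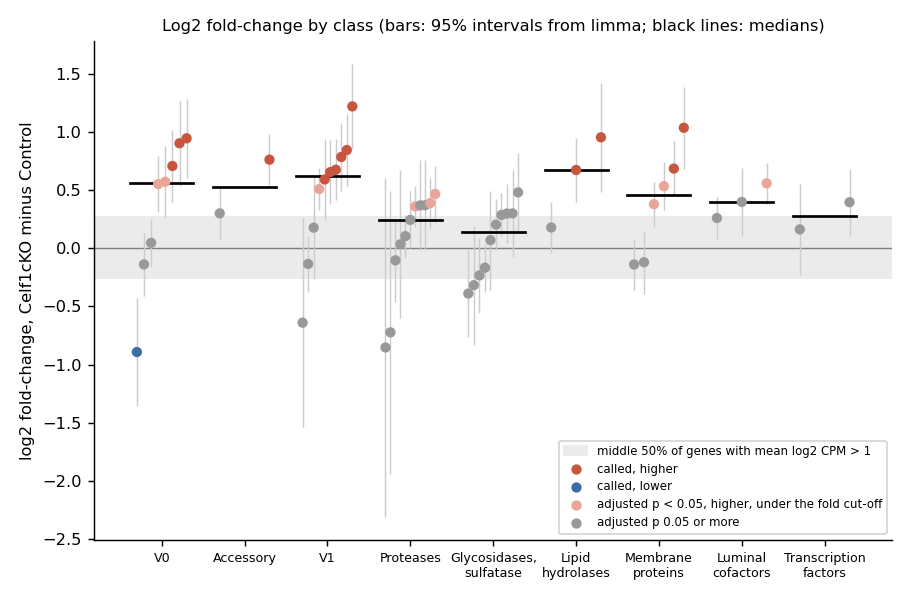
Log2 fold-change (Celf1cKO minus Control, vertical axis) of each of the 55 members by class, with 95% intervals from limma as thin bars, class medians as black lines and the middle 50% of genes with mean log2 CPM above 1 as a grey band. The V0, V1 and lipid hydrolase medians (0.565, 0.626 and 0.676) lie above the medians of proteases (0.246) and of glycosidases and sulfatase (0.138).

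Transcription factors of the MiT family, which include Tfeb and Tfe3, are known to bind a palindromic E-box in the promoters of many lysosomal genes. RefSeq promoters on GRCm38.p6, from 250 bases before to 50 bases after the start site, were matched for 46 of the 55 members, and both strands were searched for CACGTG and for the longer forms that contain it. The core CACGTG was found in a promoter of 15 of the 46 members (32.6%), against 11.6% of the 10833 table genes with a promoter and 7.15% of all 32851 promoters. With a T in front, TCACGTG was found in 13 members (28.3%), against 6.84% of table genes and 3.77% of promoters. The full palindrome TCACGTGA was found in 7 members (15.2%), against 2.1% of table genes and 0.974% of promoters. A gene with several promoters had more sequence to match than a gene with 1.

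The promoter of Atp6v1a, the member with the largest rise, is shown whole because it holds the full palindrome. It is followed by 1 window around the motif in each of the other members with TCACGTG that rose, and in Mcoln1, which did not pass the test. Ctsd and Mcoln1 each hold a further match outside the window shown. Capitals mark the motif, in TCACGTG or its reverse complement CACGTGA, and overlapping matches on both strands give TCACGTGA.
Atp6v1a (chr16:44139210-44139509, - strand): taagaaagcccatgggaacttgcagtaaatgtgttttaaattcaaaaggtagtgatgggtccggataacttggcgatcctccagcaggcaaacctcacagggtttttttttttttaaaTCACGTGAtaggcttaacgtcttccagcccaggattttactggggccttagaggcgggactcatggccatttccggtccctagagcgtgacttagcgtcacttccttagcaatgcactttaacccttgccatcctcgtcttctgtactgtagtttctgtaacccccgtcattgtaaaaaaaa
Atp6v0b (chr4:117887325-117887382, - strand): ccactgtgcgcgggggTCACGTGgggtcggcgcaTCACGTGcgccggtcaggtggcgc
Atp6v0d1 (chr8:105566045-105566084, - strand): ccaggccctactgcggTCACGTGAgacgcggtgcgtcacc
Atp6v0e (chr17:26676382-26676421, + strand): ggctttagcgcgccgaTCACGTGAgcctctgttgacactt
Ctsa (chr2:164833744-164833800, + strand): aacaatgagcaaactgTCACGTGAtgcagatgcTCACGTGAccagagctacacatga
Ctsd (chr7:142387903-142387942, - strand): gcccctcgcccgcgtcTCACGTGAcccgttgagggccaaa
Lamp1 (chr8:13159083-13159168, + strand): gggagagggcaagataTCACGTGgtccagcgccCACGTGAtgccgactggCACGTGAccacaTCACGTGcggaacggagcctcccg
Mcoln1 (chr8:3500457-3500496, + strand): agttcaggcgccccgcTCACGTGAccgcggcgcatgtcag

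Genes that rose were found both with and without the motif. Of the 13 members with TCACGTG, 7 rose, 0 fell and the median log2 fold-change was 0.382. Of the 33 members without it, 12 rose, 1 fell and the median was 0.303. The motif was in the promoters of Atp6v1a and Atp6v0b, which were called, and of Naglu and Mcoln1, whose fold-changes were -0.23 and -0.14. No match was found in the promoters of Scarb2, Lipa and Atp6v0c, which had the largest rises after Atp6v1a. For the core CACGTG, 7 of 15 members with it rose (median 0.373), against 12 of 31 without it (median 0.303). For the full palindrome TCACGTGA, 5 of 7 members with it rose (median 0.47), against 14 of 39 without it (median 0.303). Whether members with and without a motif differ was not tested. The presence of these letters says nothing of whether a factor was bound in these lenses.

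**Figure D2:**
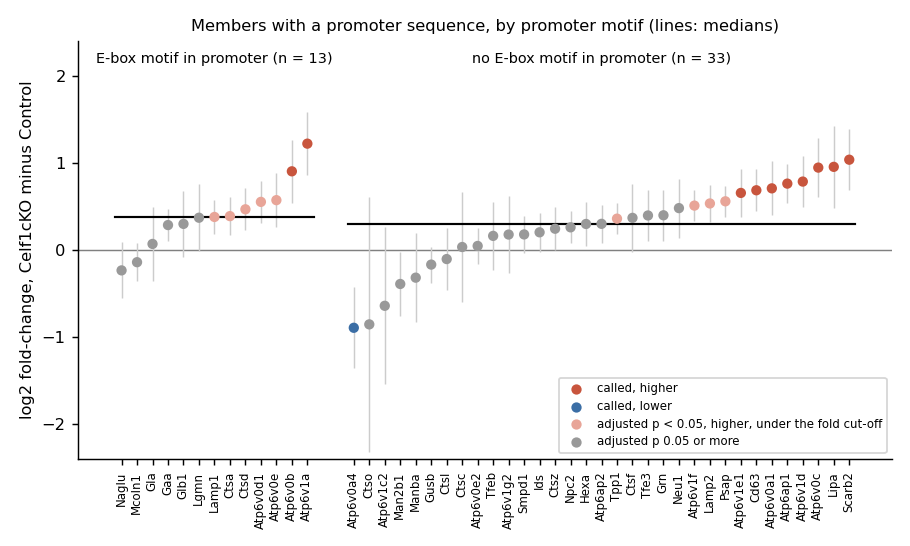
Log2 fold-change (vertical axis) with 95% intervals from limma of the 46 members with a promoter sequence, split by the presence of TCACGTG on either strand, with group medians as lines. The medians are 0.382 with the motif and 0.303 without it, and called genes are found on both sides.

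Most mRNAs of the V1 sector rose, among them those of the catalytic A subunit, of the shaft and of the main stalk genes Atp6v1g1 and Atp6v1e1. Of the 10 genes that encode V1 subunits, 7 rose, 0 fell and 6 were called higher, and the median was 0.626. Atp6v1a (ENSMUSG00000052459, chr16:44085402-44139705, - strand) encodes the A subunit, which carries the catalytic site for ATP. It stood at 5.73, 5.79 and 5.64 log2 CPM in controls and at 6.59, 7.20 and 7.05 log2 CPM in Celf1cKO libraries, on 1964 to 7136 reads. The groups did not overlap, and the 2.34-fold rise (log2 fold-change 1.22, SE 0.156, limma adjusted p = 0.00989) was the largest among the members.

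Atp6v1b2 encodes the B subunit, which alternates with A in the head of V1 and was the only B gene in the table. It stood at 7.69, 7.84 and 7.87 log2 CPM in control libraries and at 7.49, 7.76 and 7.75 log2 CPM in Celf1cKO libraries, so that the groups overlapped. The log2 fold-change of -0.13 (95% interval -0.37 to 0.11, limma adjusted p = 0.417) did not pass the test, and under total-count scaling it was 0.09. Within each library, the log2 ratio of Atp6v1a to Atp6v1b2 was -1.96, -2.06 and -2.23 in controls and -0.91, -0.57 and -0.70 in Celf1cKO lenses. The shift of 1.36 does not depend on a scaling factor per library (two-sided exact permutation p = 0.1, which is the minimum for 3 against 3 libraries). This pair was chosen after its values were seen. Per kilobase of exon, Atp6v1a amounted to 8.72 CPM and Atp6v1b2 to 42.1 CPM in controls, and to 20.7 and 38.5 CPM in Celf1cKO lenses.

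The peripheral stalks that hold the V1 head in place are made of E and G subunits. Atp6v1g1 (chr4:63544772-63550750, + strand) stood at 6.30, 6.17 and 6.21 log2 CPM in controls and at 6.80, 7.30 and 7.13 log2 CPM in Celf1cKO lenses (log2 fold-change 0.85, SE 0.132, limma adjusted p = 0.0137). Per kilobase of exon it had the highest mean V-ATPase level, 66.1 CPM in controls and 120.1 CPM in Celf1cKO lenses. Atp6v1f followed at 63.6 and 90.8 CPM. In control library 2 Atp6v1g1 was at 63.51 CPM and Atp6v1f at 63.56 CPM, so the order in controls was within the spread. The other G gene in the table, Atp6v1g2, remained near 2 log2 CPM in all libraries (log2 fold-change 0.18, adjusted p = 0.563). Atp6v1e1 (chr6:120794305-120822793, - strand), the only E gene in the table, stood at 6.41, 6.48 and 6.33 log2 CPM in controls and at 6.84, 7.25 and 7.11 log2 CPM in Celf1cKO lenses (log2 fold-change 0.66, SE 0.117, adjusted p = 0.018). For both called stalk genes the groups were fully apart.

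The D and F subunits form the shaft that turns inside V1. Atp6v1d (chr12:78840725-78861638, - strand) rose from 5.26, 5.48 and 5.27 to 5.90, 6.32 and 6.16 log2 CPM (log2 fold-change 0.79, SE 0.127, limma adjusted p = 0.0145). Atp6v1f rose from 6.08 log2 CPM in all 3 control libraries to 6.53, 6.67 and 6.57 log2 CPM, a log2 fold-change of 0.51 (adjusted p = 0.0131) that remained under the fold cut-off. The H and C subunits regulate the contact between the sectors. Atp6v1h (chr1:5070018-5162529, + strand) rose from 4.64, 4.65 and 4.50 to 5.15, 5.45 and 5.22 log2 CPM (log2 fold-change 0.68, SE 0.112, adjusted p = 0.0153). Atp6v1c1 (chr15:38661933-38692446, + strand) rose from 5.63, 5.79 and 5.56 to 5.94, 6.51 and 6.32 log2 CPM (log2 fold-change 0.59, SE 0.151, adjusted p = 0.046) and was the called member closest to both thresholds. Its alternative, Atp6v1c2, was covered by 8 to 18 reads per library (log2 fold-change -0.64, adjusted p = 0.303). Without control library 2 or without Celf1cKO library 3, limma called 0 V1 genes, with 7 at an unadjusted p under 0.05 in both cases, and without control library 3 it called 2.

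**Figure D3:**
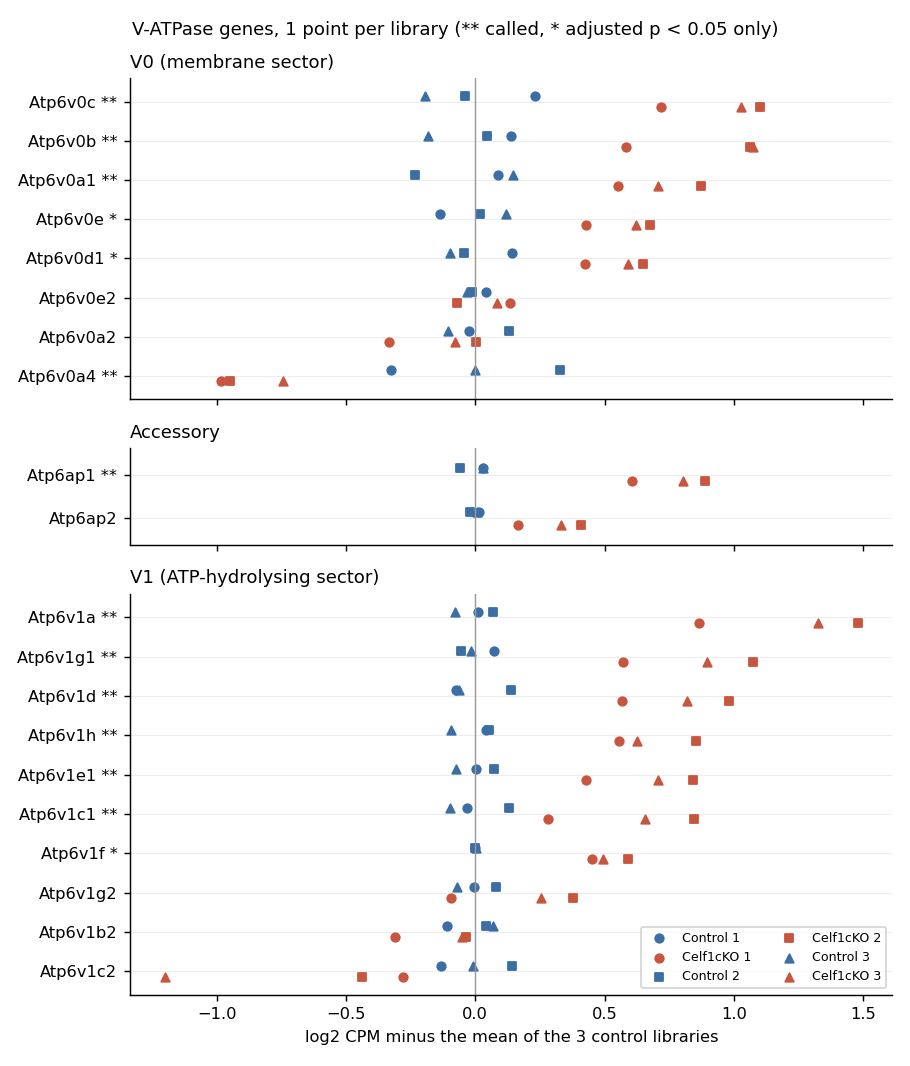
Log2 CPM of each V-ATPase gene in each library minus the mean of the 3 control libraries (horizontal axis), for V0, accessory and V1 genes, with blue for Control, red for Celf1cKO and 1 marker shape per replicate number. The Celf1cKO points of called V1 genes lie to the right of all control points, Celf1cKO library 1 is the lowest of its group in each, and Atp6v1b2, Atp6v0e2 and Atp6v0a2 overlap.

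In the V0 sector the ring genes and Atp6v0d1 rose, as did Atp6v0a1 and Atp6v0e. Atp6v0a4 fell, and Atp6v0a2 and Atp6v0e2 did not pass the test. Of the 8 V0 genes, 5 rose and 1 fell, and 3 were called higher and 1 lower (median 0.565). Atp6v0c (chr17:24163866-24169702, - strand) encodes the proteolipid that makes up most of the proton-carrying ring. It stood at 6.07, 5.79 and 5.64 log2 CPM in controls and at 6.55, 6.93 and 6.86 log2 CPM in Celf1cKO lenses (log2 fold-change 0.95, SE 0.145, limma adjusted p = 0.0134). Atp6v0b (chr4:117884326-117887333, - strand), a related ring proteolipid, stood at 5.76, 5.67 and 5.44 log2 CPM in controls and at 6.21, 6.69 and 6.70 log2 CPM in Celf1cKO lenses (log2 fold-change 0.91, SE 0.156, adjusted p = 0.0162). In both ring genes the lowest Celf1cKO library was above the highest control library. Atp6v0d1, which couples the ring to the shaft, rose by a log2 fold-change of 0.56 (SE 0.103, adjusted p = 0.0193), under the fold cut-off.

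The a subunit holds the channels by which protons enter and leave the ring, and its isoforms direct the pump to different membranes. Atp6v0a1 (chr11:101009452-101063719, + strand) stood at 5.50, 5.18 and 5.56 log2 CPM in controls and at 5.96, 6.28 and 6.12 log2 CPM in Celf1cKO lenses (log2 fold-change 0.71, SE 0.133, limma adjusted p = 0.0198). Atp6v0a2 stood at 5.95, 6.10 and 5.87 log2 CPM in controls and at 5.64, 5.98 and 5.90 log2 CPM in Celf1cKO lenses, and its log2 fold-change of -0.14 (95% interval -0.41 to 0.13, adjusted p = 0.461) became 0.09 under total-count scaling. Atp6v0a4 (chr6:38048483-38124586, - strand), known from the acid-secreting cells of the kidney and inner ear, was the only member that fell. It measured 2.98, 3.63 and 3.30 log2 CPM in controls and 2.32, 2.35 and 2.56 log2 CPM in Celf1cKO lenses, on 212 to 458 reads (log2 fold-change -0.89, SE 0.199, adjusted p = 0.0324). The remaining a gene, Tcirg1, encodes the a3 isoform known from osteoclasts and late endosomes and is not a member by name. It stood at 1.79, 1.59 and 2.13 log2 CPM in controls and at 2.60, 2.96 and 2.73 log2 CPM in Celf1cKO lenses (log2 fold-change 0.93, SE 0.205, adjusted p = 0.0315).

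The makeup of the a1, a2 and a4 transcripts was compared within each library, per kilobase of exon and without Tcirg1. Atp6v0a1 took 39.0%, 30.3% and 40.2% of their sum in control libraries and 53.0%, 53.4% and 51.3% in Celf1cKO libraries. Atp6v0a2 took 52.1%, 56.1% and 48.8% in controls and 41.4%, 42.1% and 43.0% in Celf1cKO lenses, and Atp6v0a4 took 8.92%, 13.6% and 11.1% and then 5.55%, 4.58% and 5.71%. In every Celf1cKO library the order of a1 and a2 was the opposite of that in the controls. The within-library log2 ratio of Atp6v0a1 to Atp6v0a2 shifted by 0.85, that of Atp6v0a1 to Atp6v0a4 by 1.60 and that of Atp6v0a2 to Atp6v0a4 by 0.76 (two-sided exact permutation p = 0.1 for each, the minimum). These shares were computed after the levels had been seen.

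Of the genes for the small e subunit, Atp6v0e rose and Atp6v0e2 did not pass the test. Atp6v0e rose from 3.31, 3.46 and 3.56 to 3.87, 4.12 and 4.06 log2 CPM (log2 fold-change 0.57, SE 0.132, limma adjusted p = 0.0351). Atp6v0e2 stood between 5.87 and 5.94 log2 CPM in controls and between 5.83 and 6.03 log2 CPM in Celf1cKO lenses, with overlapping groups (log2 fold-change 0.05, 95% interval -0.16 to 0.25, adjusted p = 0.75), and its sign turned to -0.03 under quantile normalization. The log2 ratio of Atp6v0e to Atp6v0e2 shifted by 0.53 within libraries, with all Celf1cKO ratios above all control ratios (two-sided exact permutation p = 0.1, the minimum).

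**Figure D4:**
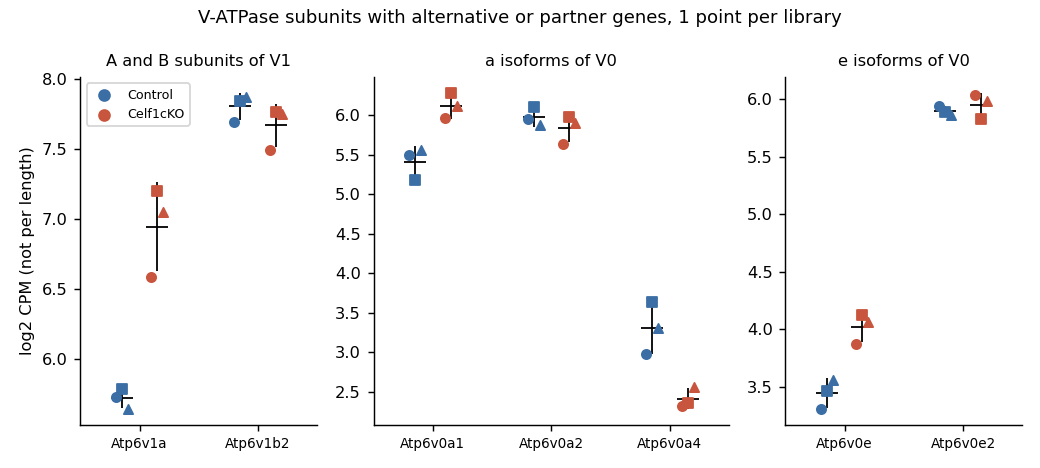
Log2 CPM (vertical axis, separate scale in each panel, not corrected for length) of V-ATPase genes that encode partner or alternative subunits, with 1 point per library and the mean and SD of each group of 3 in black. Atp6v1a, Atp6v0a1 and Atp6v0e lie higher in Celf1cKO lenses, Atp6v0a4 lies lower, and Atp6v1b2, Atp6v0a2 and Atp6v0e2 overlap between the groups.

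The accessory proteins assist assembly and sorting of the pump. Atp6ap1 (chrX:74297097-74304721, + strand), also known as Ac45, stood at 6.78, 6.69 and 6.78 log2 CPM in controls and at 7.35, 7.64 and 7.55 log2 CPM in Celf1cKO lenses (log2 fold-change 0.77, SE 0.0944, limma adjusted p = 0.0094). Atp6ap2, the prorenin receptor, stood at 5.31, 5.28 and 5.30 log2 CPM in controls and at 5.46, 5.71 and 5.63 log2 CPM in Celf1cKO lenses. The Atp6ap2 groups did not overlap, but the log2 fold-change of 0.30 (SE 0.0941, adjusted p = 0.0792) did not pass the test. Over V0 and accessory genes together, 4 were called higher and 1 lower with all libraries. Without control library 2 or Celf1cKO library 3, limma called 0 of the 10, with 8 and 7 at an unadjusted p under 0.05, and without control library 3 or Celf1cKO library 2 it called 3.

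Among the lysosomal hydrolases the called genes were enzymes of lipid breakdown, a few proteases rose under the fold cut-off and no glycosidase passed the test. Of the 3 lipid hydrolases, 2 were called. Lipa (chr19:34492318-34527474, - strand), the acid lipase that frees cholesterol and fatty acids from esters, stood at 4.24, 3.97 and 4.35 log2 CPM in controls and at 4.72, 5.31 and 5.42 log2 CPM in Celf1cKO lenses (log2 fold-change 0.96, SE 0.20, limma adjusted p = 0.0268). Asah1 (chr8:41340197-41374773, - strand), the acid ceramidase, stood at 4.77, 4.54 and 4.51 log2 CPM in controls and at 5.17, 5.24 and 5.43 log2 CPM in Celf1cKO lenses (log2 fold-change 0.68, SE 0.118, adjusted p = 0.0168). The groups were apart for both enzymes. Smpd1, the acid sphingomyelinase, differed by 0.18 (adjusted p = 0.237).

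Of the 11 proteases, 3 rose and 0 were called (median log2 fold-change 0.246), and 4 were at an unadjusted p under 0.05. Ctsd, the main aspartic protease of the lysosome, rose from 7.11, 7.14 and 6.83 to 7.42, 7.54 and 7.52 log2 CPM (log2 fold-change 0.47, SE 0.103, limma adjusted p = 0.0309). In the GENCODE M21 annotation 34.4% of its exon bases are shared with another gene on the same strand, so its reads are uncertain. Ctsa, a carboxypeptidase that also protects Neu1 and Glb1 in a complex, rose by 0.39 (adjusted p = 0.0379), and Tpp1, a tripeptidyl peptidase, rose by 0.36 (adjusted p = 0.0281). Of the 7 cysteine cathepsins, 0 passed the test in limma or in voom on recovered reads and 1, Ctsz (log2 fold-change 0.25), was at an unadjusted p under 0.05. Their log2 fold-changes ran from -0.85 for Ctso to 0.37 for Ctsf, and whether they differ from the proteases that rose was not tested. Ctsb stood at 6.72, 6.65 and 6.56 log2 CPM in controls and at 6.77, 6.72 and 6.76 log2 CPM in Celf1cKO lenses (log2 fold-change 0.11, adjusted p = 0.40). Ctsl stood between 7.0 and 7.52 log2 CPM in controls and between 7.06 and 7.39 log2 CPM in Celf1cKO lenses (log2 fold-change -0.10, adjusted p = 0.692). Lgmn, an endopeptidase that cuts after asparagine, stood at 6.97, 7.01 and 7.49 log2 CPM in controls and at 7.41, 7.77 and 7.40 log2 CPM in Celf1cKO lenses (log2 fold-change 0.37, adjusted p = 0.181). Per kilobase of exon, Lgmn at 62.2 ± 13.0 CPM (SD, n = 3) in controls and Ctsd at 55.6 ± 6.36 CPM were the highest proteases and did not differ beyond their spread.

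Ctso and Ctsh had the lowest fold-changes of the proteases and a wide spread. Ctso stood at 1.08, 0.06 and 0.98 log2 CPM in controls and at 0.51, -1.58 and 0.63 log2 CPM in Celf1cKO lenses (log2 fold-change -0.85, SE 0.625, limma adjusted p = 0.394). Ctsh stood at 2.31, 1.59 and 2.25 log2 CPM in controls and at 1.69, 0.11 and 2.17 log2 CPM in Celf1cKO lenses (log2 fold-change -0.72, adjusted p = 0.386). Celf1cKO library 2 alone was far below the others in both, and control library 2 was the lowest of its own group in both. Celf1cKO library 2 had the lowest summed level of 8 vessel markers, 27.2 CPM against 76.4 to 169.8 CPM in the other libraries. It was also the lowest in the sum of 5 epithelial markers without Cryab, 143.4 CPM against 324.2 to 506.5 CPM. The sum of 11 macrophage markers was lowest in library 2 of each group, at 7.08 CPM in controls and 8.44 CPM in Celf1cKO lenses. The part of any of these marker levels in the cathepsin values was not tested.

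The glycosidases and the sulfatase Ids showed smaller differences. Of these 10 genes, 0 passed the test in limma on the deposited values or in voom on recovered reads, 4 were at an unadjusted p under 0.05, and the median log2 fold-change was 0.138. Gaa, the acid alpha-glucosidase that degrades glycogen and the one with the highest log2 CPM, not corrected for length, stood at 6.83, 6.84 and 6.69 log2 CPM in controls and at 7.11, 7.02 and 7.09 log2 CPM in Celf1cKO lenses. Its groups did not overlap, and its log2 fold-change was 0.29 (SE 0.080, adjusted p = 0.0584). The partners of Ctsa had log2 fold-changes of 0.48 for the sialidase Neu1 (adjusted p = 0.0717) and 0.30 for the beta-galactosidase Glb1 (adjusted p = 0.252). Man2b1, a mannosidase, had the lowest value, -0.39, with 4.37, 4.6 and 4.96 log2 CPM in Celf1cKO lenses against 4.94 to 5.16 log2 CPM in controls (adjusted p = 0.151). For the hydrolases together, 2 were called with all libraries, 1 without control library 1 or Celf1cKO library 2, and 0 by limma without control library 2, control library 3 or Celf1cKO library 3, with 7, 8 and 10 at an unadjusted p under 0.05.

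Among the membrane proteins, Scarb2 and Cd63 were called and the LAMP genes rose less. Scarb2 (chr5:92441314-92506833, - strand) encodes LIMP-2, a sorting receptor of the lysosomal membrane. It stood at 5.43, 5.30 and 5.03 log2 CPM in controls and at 6.03, 6.46 and 6.39 log2 CPM in Celf1cKO lenses, a 2.06-fold rise (log2 fold-change 1.04, SE 0.15, limma adjusted p = 0.0117). All Celf1cKO values lay above all control values. Cd63 (chr10:128900989-128912822, + strand), a tetraspanin of late endosomes and lysosomes, stood at 5.86, 5.65 and 5.57 log2 CPM in controls and at 6.29, 6.46 and 6.39 log2 CPM in Celf1cKO lenses (log2 fold-change 0.69, SE 0.102, adjusted p = 0.013).

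Lamp1 and Lamp2 encode the most abundant glycoproteins of the lysosomal membrane. Lamp1 had the highest log2 CPM of all members, at 8.25, 8.23 and 8.18 in controls and 8.48, 8.69 and 8.63 in Celf1cKO lenses (log2 fold-change 0.38, SE 0.0833, limma adjusted p = 0.0307). Lamp2 stood at 6.24, 6.25 and 6.15 log2 CPM in controls and at 6.63, 6.86 and 6.76 log2 CPM in Celf1cKO lenses (log2 fold-change 0.54, SE 0.0892, adjusted p = 0.0154). For both genes the groups were apart and the fold-change was under the cut-off. The calcium-permeable channel Mcoln1 differed by -0.14 on the log2 scale (95% interval -0.36 to 0.08, adjusted p = 0.363), which was 0.09 under total-count scaling. For the cholesterol exporter Npc1 the difference was -0.12 (adjusted p = 0.529). Without control library 2 or Celf1cKO library 3, limma called 0 membrane proteins, with 4 at an unadjusted p under 0.05 in both cases.

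The luminal cofactors lie between these classes. Psap, the precursor of the saposins that present lipids to hydrolases, rose from 8.0, 7.92 and 7.94 to 8.44, 8.55 and 8.54 log2 CPM (log2 fold-change 0.56, SE 0.0755, limma adjusted p = 0.0106). Grn, which encodes progranulin, and the cholesterol carrier Npc2 had log2 fold-changes of 0.40 (adjusted p = 0.0784) and 0.26 (adjusted p = 0.0712), with Celf1cKO values above all control values in both.

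Of the transcription factors, 0 of 2 passed the test in limma or in voom on recovered reads, and 1 was at an unadjusted p under 0.05. Tfeb stood at 3.64, 3.65 and 3.37 log2 CPM in controls and at 3.42, 3.90 and 3.82 log2 CPM in Celf1cKO lenses, with overlapping groups (log2 fold-change 0.16, adjusted p = 0.55). Tfe3 stood at 4.68, 4.48 and 4.44 log2 CPM in controls and at 4.75, 5.07 and 4.98 log2 CPM in Celf1cKO lenses (log2 fold-change 0.40, SE 0.124, adjusted p = 0.0788). The activity of these factors is set largely by their location in the cell, which RNA levels do not show. Mitf, another factor of the family and not a member, stood at 4.35, 4.78 and 4.58 log2 CPM in controls and at 3.87, 3.72 and 3.96 log2 CPM in Celf1cKO lenses, and was called lower (log2 fold-change -0.72, SE 0.142, adjusted p = 0.0225).

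**Figure D5:**
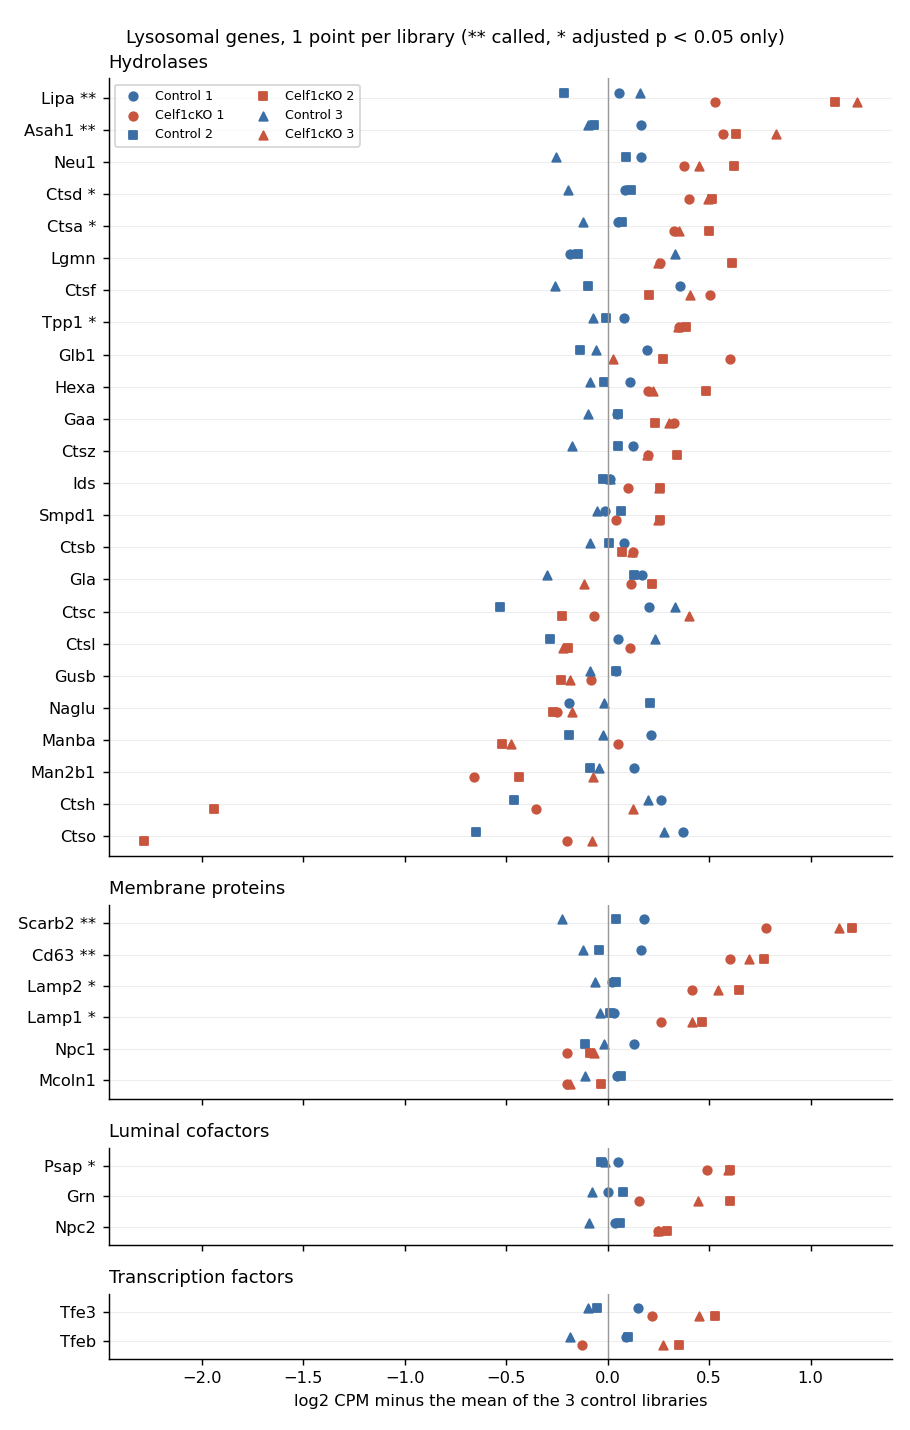
Log2 CPM of each lysosomal gene in each library minus the mean of the 3 control libraries (horizontal axis), for hydrolases, membrane proteins, luminal cofactors and transcription factors, with blue for Control, red for Celf1cKO and 1 marker shape per replicate number. Lipa, Asah1, Scarb2 and Cd63 have all Celf1cKO points above all control points, and in Ctso and Ctsh Celf1cKO library 2 lies far to the left.

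The Celf1cKO libraries differed in the size of the change. Celf1cKO library 1 was the lowest of its group in 22 of the 23 members that rose and in 14 of the 14 called higher. Over all genes it was the lowest in 83.0% of those that rose and in 86.7% of those called higher, so this order was not particular to the members. The median deviation of V1 genes from the control mean was 0.44, 0.84 and 0.64 in Celf1cKO libraries 1 to 3, and that of V0 and accessory genes was 0.43, 0.66 and 0.61. The hydrolases had smaller medians of 0.16, 0.25 and 0.23. In all of these medians library 1 was the lowest and library 2 the highest.

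A wider list of V-ATPase and lysosome genes that are not members gave 94 genes in the table out of 98. Of these, 14 rose and 5 fell, and 9 were called higher and 5 lower (median log2 fold-change 0.092). Over all genes, 7.84% rose and 4.03% fell, and 4.69% and 2.56% were called in these directions, so that 1 or 2 genes of a short list are close to this background. Of the 8 genes for the a3 subunit and for assembly factors of the V-ATPase, 3 rose, namely Tcirg1, the assembly factor Tmem199 (0.73) and the regulator Dmxl2 (0.50), and 0 fell. Of the 12 genes of the Ragulator, the Rag GTPases and folliculin, which link the lysosome to mTORC1 signalling, 4 rose and 1 fell. Rragd was called higher (log2 fold-change 0.68, SE 0.144, limma adjusted p = 0.0275) and its paralog Rragc was called lower, from 6.31, 6.38 and 6.18 to 5.69, 5.67 and 5.66 log2 CPM (log2 fold-change -0.62, SE 0.0847, adjusted p = 0.0107). Of 19 genes listed for the HOPS, PIKfyve and BORC complexes together with the Arl8 genes, 2 rose, Arl8a (0.70) and Pikfyve (0.59). Of 7 genes for sorting by mannose 6-phosphate and related receptors, 1 rose, M6pr (0.38).

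The other lysosomal enzymes had a lower median than the members. Of 24 further hydrolases and activators, 1 rose and 3 fell, against 7.84% and 4.03% of all genes. The median log2 fold-change of the list was -0.139. Dnase2b, the nuclease of fiber cells, stood at 7.49, 7.57 and 7.83 log2 CPM in controls and at 5.99, 4.09 and 4.39 log2 CPM in Celf1cKO lenses (log2 fold-change -2.81, SE 0.445, limma adjusted p = 0.0141). Hyal1, a hyaluronidase, and Idua, an iduronidase, fell by 1.84 and 0.88 on the log2 scale. Of 23 further membrane proteins, 3 rose and 0 fell, against the same shares of all genes. Those that rose were the cystine exporter Ctns (log2 fold-change 0.96, SE 0.185, adjusted p = 0.0211), Ostm1 (0.85), the partner of a lysosomal chloride transporter, and the amino acid transporter Slc36a1 (0.84). Of the genes outside the members, Tmem199, Dmxl2, Rragc, Pikfyve, M6pr, Hyal1, Idua, Ostm1 and Slc36a1 were named with their values already known.

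The lens identity and other cell types were checked by marker lists. The 8 lens fiber markers in the table, of 9 listed, summed to 261100 to 296900 CPM in controls and 213300 to 223500 CPM in Celf1cKO lenses, and 2 of them (Bfsp1 and Gja3) fell. Of the 6 epithelial markers, 2 (Foxe3 and Cryab) fell. Their sum was 12750 to 15780 CPM in controls and 7504 to 9852 CPM in Celf1cKO lenses but was almost wholly Cryab, a crystallin that fibers also express. The other 5 summed to 437.8 to 506.5 CPM in controls and to 376.4, 143.4 and 324.2 CPM in Celf1cKO libraries 1 to 3. Macrophages are rich in lysosomes, and their 11 markers in the table, of 14 listed, summed to 7.08 to 15.9 CPM in controls and 8.44 to 14.3 CPM in Celf1cKO lenses. Of these 11, 0 passed in limma or in voom on recovered reads and 0 were at an unadjusted p under 0.05, and Aif1, Itgam and Ptprc were not among the tested genes. The 8 vessel markers summed to 134.1 to 169.8 CPM in controls and 27.2 to 142.9 CPM in Celf1cKO lenses, and of these 0 passed in limma or voom and 2 were at an unadjusted p under 0.05. Markers of pigment epithelium and melanocytes (6 in the table) summed to at most 28.0 CPM, those of neural retina (5) to at most 24.1 CPM and the single erythroid marker to at most 1.35 CPM in any library. The fiber sum, the Cryab level and the sum of the other epithelial markers were lower in all Celf1cKO libraries than in all controls, and their part in the rise of V-ATPase and lysosomal genes was not tested.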

How the data were processed

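RNA-seq values of 3 control and 3 Celf1cKO lens libraries were used, grouped by the labels. According to the submitters' notes and the study's methods, trimmed reads were aligned to GRCm38.p6 with STAR 2.7.8a, uniquely mapped reads were counted per gene with featureCounts 2.0.0, and genes of very low expression were removed. Libraries were strand-specific, and the strand setting of the counting is not given in the sources used here. The authors deposited log2 CPM values of each library after normalization between libraries, with a small prior count, so that a gene without a read is at -4.41. The scaling factors were estimated here from the deposited values and the reads recovered from them for the genes in the table. They were 0.931 ± 0.04 (SD, n = 3) for control and 1.09 ± 0.031 (SD, n = 3) for Celf1cKO libraries. The other deposited columns hold the authors' fold-changes, average log2 CPM, F, p and FDR values and were not used.

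Groups were compared with limma 3.58.1 in R 4.3.3 (variance trend, no block, prior degrees of freedom 3.4). The fit was also run on simulated counts of independent libraries in which all genes shared the same dispersion. That simulation does not show how the calls behave under the spread of these libraries. Deposited values gave whole read numbers (within 0.05 of a read) for depth and for voom. Single ratios within libraries were compared by exact permutation tests. The floor of 3 reads covers counting error only. The replicate numbers in the labels are shared by both groups, but no source describes a pairing. The deviations of same-numbered libraries from their group means correlated in all 3 pairs (r = 0.259, 0.392 and 0.378). Deviations cancel within a group, so these correlations are not independent of each other. Whether the numbers pair the libraries was not settled, and a replicate block was fitted only as an alternative. Exon lengths, positions and overlaps came from GENCODE M21 (GRCm38), as the union of exons of all transcripts, which lowers values per kilobase for genes with rare long transcripts. Python 3.11.15 with matplotlib 3.10.9 made the plots.

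The members, the classes and the lists of further pathway genes and markers were chosen with earlier results of these data known, and 1 listed gene is not reported here. The genes described are Celf1, all called members, the highest and lowest member of each class, all V-ATPase isoform genes, and in each further list the called gene with the largest fold-change. Other members are named as partners of these or because they passed the test, and were chosen after their values were seen. Alternatives were the replicate block, other variance models, pseudocounts, filters and scalings, voom, no fold cut-off and each library left out in turn.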

Additional observations from a re-analysis of the deposited data

How the results depend on the processing

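With all libraries, 15 members were called, and a fit with a replicate block called the same 15 (Celf1 adjusted p = 0.0178 in limma). The block changed the count of no member class, and gave 16 of the other pathway genes and 1255 of all genes in place of 14 and 1010. The variance model, the scaling between libraries and the number of libraries mattered more. Without a variance trend, 8 members were called (V0 and accessory 2, hydrolases 0, with 7 at an unadjusted p under 0.05), 5 other pathway genes and 412 of all genes, and Celf1 kept its log2 fold-change of -1.60 at an adjusted p of 0.0693. Under total-count scaling, 28 members (hydrolases 7, membrane proteins 4), 23 other pathway genes and 1848 of all genes (1651 higher and 197 lower, against 654 and 356) were called, and the class medians were 0.791 for V0 and accessory, 0.853 for V1, 0.452 for hydrolases and 0.686 for membrane proteins, above the median of 0.231 over all genes with a mean log2 CPM above 1. This scaling turned the fold-changes of Atp6v0a2 (0.089), Atp6v1b2 (0.093) and Mcoln1 (0.088), and quantile normalization turned that of Atp6v0e2 (-0.034), none of which passed the test. Without the fold cut-off, 24 members were called (hydrolases 5, membrane proteins 4) and 1530 of all genes. Between 41 and 48 of the 55 members had a positive fold-change under every alternative.

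Leaving out each library in turn gave 0 to 19 called members, 0 to 7 V0 and accessory genes, 0 to 6 V1 genes, 0 to 2 hydrolases, 0 to 3 membrane proteins, 0 to 20 other pathway genes and 1 to 1878 of all genes. The counts of 0 members came without control library 2 (30 members at an unadjusted p under 0.05) and without Celf1cKO library 3 (31), and the 19 came without Celf1cKO library 1, which kept all 15. The medians kept closer, at 0.516 to 0.634 for V0 and accessory, 0.520 to 0.745 for V1, 0.188 to 0.254 for hydrolases and 0.410 to 0.519 for membrane proteins. Celf1 ranged from -1.99 to -1.36, with an adjusted p of 0.0025 to 0.108 that was above 0.05 in 5 of 6 omissions. Atp6v1a ranged from 1.10 to 1.40, with an adjusted p of 0.00121 to 0.0654. Atp6v0a4 ranged from -1.06 to -0.73, with an adjusted p of 0.0401 to 0.103. The cause of these losses was not tested. With 3 libraries a group, adjusted p-values near 0.05 are fragile. Atp6v1c2 rests on 8 to 18 reads per library and Ctso on 14 to 79 reads, and their intervals include rises and falls.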

Other observations

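CELF1 is known to bind GU-rich elements in 3′ UTRs. The first 300 bases of the 3′ UTR, with GENCODE M21 transcripts on GRCm38, were available for 46 members, and the strict GU-rich element was found in 2 of them, Asah1 and Lgmn, against 0.527% of 10442 table genes. The sites are shown with 8 flanking bases on either side and the motif in capitals.
Asah1: tgttttgtTGTTTGTTTGTtctgatga
Lgmn: agttttttTGTTTGTTTGTtttggttt
A looser form, in which any base may stand between the TGT units and which includes the strict form, was found in 4 members (Asah1, Atp6v0d1, Grn and Lgmn), against 2.94% of table genes. Of these, Asah1 and Atp6v0d1 rose, with log2 fold-changes of 0.68 and 0.56, and Grn (0.40) and Lgmn (0.37) did not pass the test in limma. Binding was not measured in these lenses, and Atp6v1a and Scarb2, which had the largest fold-changes, held no match to the strict form in this window.

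In GENCODE M21, 17 of the 55 members share exon bases with another annotated gene. Beside Ctsd, these include Ctsl, with 26.8% of its exon bases shared with an antisense gene and 6.09% with a processed pseudogene on its own strand, Atp6v0b, with 11.8% shared with an antisense gene, and Atp6v0a4, with 5.21% shared with a gene on its own strand. The levels of these genes are uncertain to that extent.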
